A study of Mus musculus with 15 samples.

Results

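The 10 genes described here encode granule proteins and abundant cytosolic proteins of neutrophils, called granule genes below for short, and were chosen by symbol: each has 1 row among the 34245 genes of the differentiation count table. They comprise 4 azurophil granule genes (Mpo, Elane, Prtn3, Ctsg), 4 specific granule genes (Ltf, Lcn2, Camp, Ngp) and 2 genes of abundant cytosolic proteins of neutrophils (S100a8, S100a9). All cells came from bone marrow of male C57BL/6 mice aged 8 to 10 weeks and were grown in CSF1 (colony-stimulating factor 1, the growth factor of the macrophage lineage). Precursors were the non-adherent cells after 2 days at 0.6 ng/ml CSF1 in alpha+ MEM with 15% FCS (fetal calf serum). Immature macrophages had a further 4 days at 12 ng/ml, with 10% FCS. Mature macrophages had 1 day at 0.6 ng/ml, 2 days at 12 ng/ml and 7 days at 120 ng/ml CSF1. In a separate experiment, mature macrophages were kept for another 48 h at 120 ng/ml CSF1 without or with 20 ng/ml IL4 (interleukin 4). There were 3 libraries in each of the 5 groups, which the labels number by mouse. CSF1 concentration and time in culture changed together between the stages, and serum changed as well between precursors and immature macrophages, so their parts cannot be told apart.

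A neutrophil fills its granules in sequence as it matures in the marrow. Azurophil granules, with myeloperoxidase and serine proteases, are made at the promyelocyte stage, specific granules with lactoferrin and cathelicidin are made later, and the transcripts of the earlier set are shut off before the cell leaves the marrow. Common progenitors of neutrophils and monocytes already transcribe the azurophil genes, and monocytes contain S100A8 and S100A9 protein, whereas resident macrophages are not known for either granule set.

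The promoters are shown because the granule genes are textbook targets of a few myeloid transcription factors: PU.1, C/EBP proteins and MYB. The 250 bases before the RefSeq start (GRCm38.p6) were found for 10 of 10 genes and searched on both strands for GGAAGT (PU.1-type), GCAAT (C/EBP-type), AACGG (MYB-type) and TGTGGT (RUNX-type). These motifs do not overlap one another in the sequences printed. Capitals mark the first 3 kinds, and a match on the opposite strand appears as its reverse complement. Whole windows are printed for 1 gene of each class: Ctsg (chr14:56102575-56102824, minus strand), Ltf (chr9:111019042-111019291, plus strand) and S100a9 (chr3:90695722-90695971, minus strand).
Ctsg: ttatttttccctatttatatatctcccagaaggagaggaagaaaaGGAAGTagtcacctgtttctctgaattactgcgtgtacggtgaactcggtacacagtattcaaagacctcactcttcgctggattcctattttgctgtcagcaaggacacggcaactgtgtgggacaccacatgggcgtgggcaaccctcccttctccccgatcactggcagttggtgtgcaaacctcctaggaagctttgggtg
Ltf: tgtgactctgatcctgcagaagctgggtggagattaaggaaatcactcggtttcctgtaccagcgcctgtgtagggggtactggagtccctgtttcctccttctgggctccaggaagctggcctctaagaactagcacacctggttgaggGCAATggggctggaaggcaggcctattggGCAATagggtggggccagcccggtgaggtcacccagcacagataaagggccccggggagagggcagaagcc
S100a9: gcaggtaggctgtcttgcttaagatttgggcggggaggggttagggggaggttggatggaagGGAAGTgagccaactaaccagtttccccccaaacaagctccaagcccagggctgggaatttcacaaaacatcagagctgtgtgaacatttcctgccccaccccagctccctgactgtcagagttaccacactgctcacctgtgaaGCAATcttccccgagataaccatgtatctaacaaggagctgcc

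For the other genes, 30 bases around a chosen match are printed. Elane is given at 2 places, since its C/EBP-type and MYB-type matches lie side by side.
Mpo, chr11:87793550-87793579, plus strand: tggagagagagaGGAAGTtgcctttgtccc
Elane, chr10:79886217-79886246, plus strand: gtgtcccagggaGGAAGTagggctgtggcc
Elane, chr10:79886243-79886272, plus strand: ggccaggatgggGCAATacAACGGcctctg
Prtn3, chr10:79879562-79879591, plus strand: aaactggaaggaGGAAGTgggacccacagc
Lcn2, chr2:32387861-32387890, minus strand: cagaatgtactgGCAATtacttcatggctt
Camp, chr9:109849576-109849605, minus strand: gagtctcatgagGCAATgagagtctgaagc
Ngp, chr9:110419657-110419686, plus strand: atgtcctggtttATTGCccaaacctccttg
S100a8, chr3:90668887-90668916, plus strand: tccaacactcccACTTCCtcagactcagaa

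The PU.1-type letters occurred in 4 of 4 azurophil, 0 of 4 specific and 2 of 2 cytosolic windows, against 19.7% of 32851 RefSeq promoters of the same length. The C/EBP-type letters occurred in 2 of 4 azurophil (Mpo, Elane), 4 of 4 specific and 2 of 2 cytosolic windows, against 23.1% of promoters. The MYB-type letters occurred in Elane and Prtn3 alone among the 10, against 14.5% of promoters. The RUNX-type letters, which were not put in capitals, occurred in Ctsg and S100a9, against 14.0% of promoters. In Elane the PU.1-type match begins 83 bases, the C/EBP-type match 57 bases and the MYB-type match 50 bases before the start. In Prtn3, the neighbouring gene, the PU.1-type match begins 93 bases and the MYB-type match 55 bases before the start. The motifs were chosen with the sequences in view, so the shares of promoters do not test these counts, and a match is only a run of letters. The deposited gene interval begins before the RefSeq start for 8 of the 10 genes, and for Prtn3 and Lcn2 it covers the whole 250 bases.

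All 10 genes were expressed in precursors, were lower by 31.6-fold to 140-fold in immature macrophages (pooled reads) and were at or near 0 reads in mature macrophages. By the quasi-likelihood test of edgeR, adjusted after Benjamini and Hochberg, 10 of 10 fell between precursors and immature macrophages, where 26.6% of all genes tested were called lower. Likewise 10 of 10 fell between immature and mature macrophages, where 7.38% of genes were called lower, and 10 of 10 between precursors and mature macrophages, where 28.5% were. The median log2 fold change from precursors to immature macrophages was -6.25 for the 10 genes and -0.07 for all 13359 genes tested. From immature to mature macrophages it was -8.38 as fitted, or -6.59 with the 7 genes at 0 reads set to a bound from 3 reads, against 0 for all genes. In bulk RNA, fewer cells of a type and less RNA per cell cannot be told apart.

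Between 7897769 and 22167294 reads were assigned to genes in a differentiation library, and between 2408531 and 4214266 in a library of the IL4 experiment. Levels are given in CPM, the counts divided by TMM-scaled library totals. Changes are log2 fold changes ± SE of the edgeR fit, and a gene is said to rise or fall only at an adjusted p under 0.05. Every precursor library lay above every immature library for each of the 10 genes. Every immature library likewise lay above every mature one. All 10 passed the filter on low counts through both the precursors and the immature macrophages, since each was over the limit of 0.741 CPM in all 6 of those libraries.

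**Figure D1:**
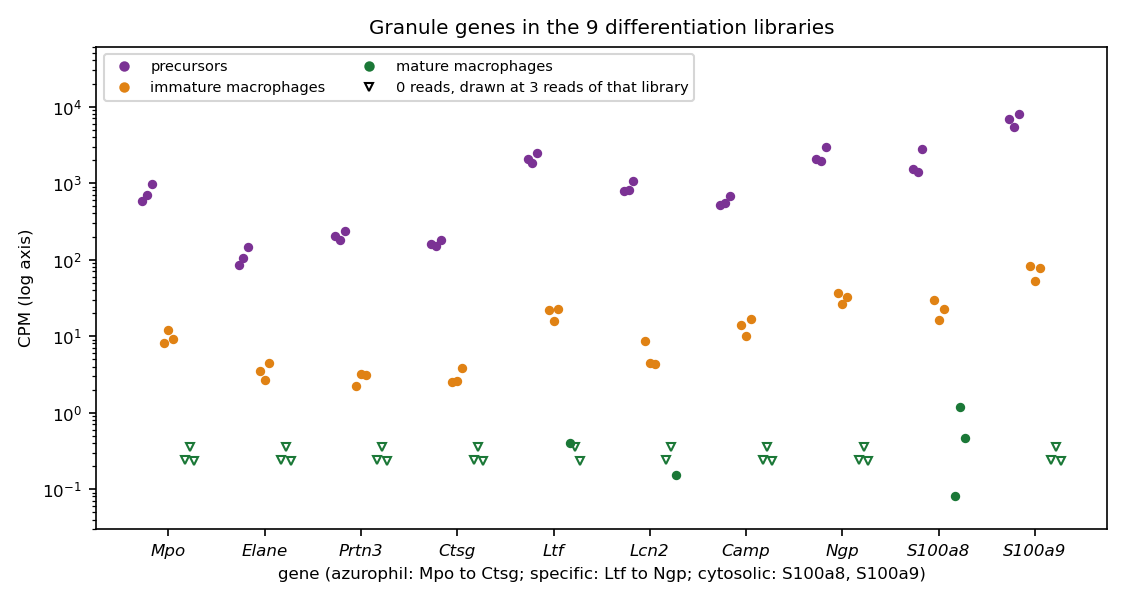
Level of each granule gene (CPM, log axis) in the 3 libraries of precursors (purple), immature (orange) and mature (green) macrophages. Open triangles mark libraries at 0 reads, drawn at the level of 3 reads of that library; the 3 groups do not overlap for any gene, and filled green points remain for Ltf, Lcn2 and S100a8 alone.

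Among the azurophil genes, Mpo had the most reads. It encodes myeloperoxidase, the enzyme that makes hypochlorous acid from hydrogen peroxide (ENSMUSG00000009350, chr11:87793581-87804413, plus strand). Its level was 579, 691 and 967 CPM in precursor libraries 1 to 3, 8.11, 11.9 and 9.07 CPM in immature macrophages, and 0 reads in each mature library. The precursor libraries thus spread 1.67-fold around a difference of 75.7-fold (95% counting interval 67.4 to 85.2). Mature macrophages had at least 108-fold lower Mpo than immature ones, and the bound against precursors was at least 8201-fold.

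Elane and Prtn3 lie 3073 bases apart on chromosome 10, both on the plus strand, and encode neutrophil elastase and proteinase 3, serine proteases that are stored active in azurophil granules. Elane (ENSMUSG00000020125, chr10:79886247-79888215) stood at 84.3, 106 and 147 CPM in precursors and at 3.47, 2.66 and 4.47 CPM in immature macrophages, with 0 reads in mature ones. It had the smallest drop of the 10 genes from precursors to immature macrophages, 31.6-fold (95% counting interval 26.04 to 38.7; adjusted p = 6.59e-06, edgeR). Prtn3 (ENSMUSG00000057729, chr10:79874476-79883174) stood at 202, 183 and 237 CPM in precursors and at 2.21, 3.17 and 3.07 CPM in immature macrophages, with 0 reads in mature ones. Its drop was 73.4-fold (95% counting interval 59.2 to 92.3), so more was left of Elane than of its neighbour in each immature library. The Prtn3 interval overlaps Plppr3 on the opposite strand, a gene that ran from 15.3 to 21.2 CPM in precursors and from 0.767 to 2.28 CPM later, in immature macrophages. The strand setting of the counting is not given in the sources used here, so a part of either gene's reads may belong to the other.

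Ctsg, which encodes cathepsin G, a chymotrypsin-like protease of the same granules (ENSMUSG00000040314, chr14:56099881-56102574, minus strand), was the steadiest of the 10 among the precursor libraries. It stood at 162, 152 and 181 CPM there, at 2.52, 2.56 and 3.83 CPM in immature macrophages and at 0 reads in mature ones. The log2 fold change to immature macrophages was -5.81 ± 0.25 (adjusted p = 1.59e-06, edgeR). From immature to mature macrophages the bounds were at least 39.2-fold for Elane, at least 31.0-fold for Prtn3 and at least 32.5-fold for Ctsg. These lower bounds are set by the depth, since the immature libraries held just 105, 83 and 87 reads of the 3 genes.

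Per kilobase of exon the specific granule genes stood above the azurophil genes in precursors, as given further on, and 3 of the 4 lie on chromosome 9. Ltf encodes lactoferrin, which binds iron (ENSMUSG00000032496, chr9:111019271-111042767, plus strand). It stood at 2038, 1831 and 2507 CPM in precursors and at 22.2, 15.9 and 22.4 CPM in immature macrophages. The log2 fold change was -6.72 ± 0.45 (adjusted p = 3.04e-06, edgeR). Mature library 1 held 5 Ltf reads and mature libraries 2 and 3 held 0, so Ltf was 137-fold lower than in immature macrophages (95% counting interval 58.5 to 424). Without mature library 3 that ratio was 84.5.

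Lcn2 encodes lipocalin 2, which starves bacteria of iron by binding their siderophores (ENSMUSG00000026822, chr2:32384633-32388252, minus strand). It had the largest drop of the 10 from precursors to immature macrophages, 140-fold (95% counting interval 122 to 163). Precursors were at 781, 811 and 1064 CPM, and immature macrophages at 8.59, 4.40 and 4.34 CPM, library 1 above the other 2. Mature library 3 held 2 reads and the other 2 held 0, a ratio of 104 to immature macrophages (95% counting interval 28.5 to 868). Without mature library 1 the ratio was 66.4, and without mature library 3 Lcn2 was at least 42.8-fold lower.

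Camp and Ngp, 570130 bases apart on chromosome 9, both encode secreted proteins with a cathelin-like domain. Camp gives the antimicrobial peptide CRAMP (ENSMUSG00000038357, chr9:109847379-109849617, minus strand), and Ngp is neutrophilic granule protein (ENSMUSG00000032484, chr9:110419747-110423012, plus strand). Camp stood at 513, 549 and 672 CPM in precursors and at 13.9, 10.0 and 16.6 CPM in immature macrophages. Ngp stood at 2091, 1969.6 and 2988 CPM in precursors and at 36.4, 25.9 and 32.1 CPM in immature macrophages. Both were at 0 reads in the 3 mature libraries. Compared with immature macrophages this is at least 151-fold lower for Camp and at least 361-fold lower for Ngp. Camp kept more of its precursor level in immature macrophages than the other 3 specific granule genes, with a log2 fold change of -5.42 ± 0.27 against -6.22 ± 0.30 for Ngp (edgeR, adjusted p = 2.79e-06 for each).

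S100a8 and S100a9 encode the 2 subunits of calprotectin, a calcium-binding complex that withholds zinc and manganese from microbes and can activate Toll-like receptor 4. They lie 22597 bases apart on chromosome 3. S100a9 (ENSMUSG00000056071, chr3:90692632-90695721, minus strand) had the most reads of the 10, at 6807, 5383 and 8051 CPM in precursors. By reads it ranked 6, 6 and 5 among all genes of those libraries. In immature macrophages it stood at 81.7, 53.2 and 76.4 CPM, still the highest of the 10, and in mature macrophages at 0 reads in each library. The bound is at least 806-fold against immature macrophages and at least 72828-fold against precursors.

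S100a8 (ENSMUSG00000056054, chr3:90668978-90670035, plus strand) stood at 1511, 1405 and 2763 CPM in precursors and at 29.3, 16.3 and 22.9 CPM in immature macrophages. It varied most among the precursor libraries, 1.97-fold between the lowest and the highest. In mature macrophages S100a8 was the one gene of the 10 with reads in each library: 1, 10 and 6 reads, or 0.0809, 1.17 and 0.459 CPM. The ratio of immature to mature macrophages was 46.8 (95% counting interval 29.0 to 80.9), and without mature library 2 it was 85.1. Against precursors the ratio was 3515, or 6389 without mature library 2. S100a9 thus had 4.50, 3.83 and 2.91 reads for each S100a8 read in precursors and 2.79, 3.27 and 3.34 in immature macrophages, groups that overlap, while mature macrophages held 17 S100a8 reads and 0 of S100a9. The counting intervals and the bounds cover counting error only, and they pool the reads of a group. Without mature library 3 each bound against mature macrophages was 0.615 times as large, and without mature library 1 it was 0.636 times as large.

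Together the 10 genes took 1.66%, 1.46% and 2.19% of the reads assigned to genes in the precursor libraries, and 0.0193%, 0.0142% and 0.0193% in immature macrophages. The 3 mature libraries held 24 reads of the 10 genes in all. Precursor library 3 was the highest of the 3 for 10 of the 10 genes. The azurophil genes made up 6.96%, 8.65% and 7.82% of the granule gene reads in precursors and 7.83%, 13.9% and 10.5% in immature macrophages. The means were 7.81% and 10.7%, and the ranges overlap; this difference was not tested.

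Per kilobase of exon, S100a9 in precursors came to 12925 ± 2557 CPM per kb (mean ± SD, n = 3). Exon length is here the union of all exons of a gene in GENCODE M21, not the length of a transcript. The order below may depend on this choice. S100a8 followed at 2728 ± 1089 and Ngp at 1923 ± 455, which overlap each other. Camp, at 763 ± 110 CPM per kb, and Ltf, at 616 ± 100.5, overlapped as well. Lcn2 came next at 337 ± 59.3 and Mpo at 218 ± 58.3. Ctsg at 160 ± 14.0, Prtn3 at 120 ± 15.8 and Elane at 114 ± 32.6 CPM per kb were the lowest, and the libraries of Elane overlapped those of both other proteases. Mpo overlapped Ctsg too, as the lowest precursor library of Mpo stood at 169 and the highest of Ctsg at 175 CPM per kb. All 4 azurophil genes therefore stood below the 6 others in mean level per length.

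The share of the precursor mean left in immature macrophages ran from 0.653% ± 0.275 for Lcn2 to 3.14% ± 0.807 for Elane (SD, n = 3). Camp kept 2.34% ± 0.572, Ctsg 1.80% ± 0.453, Prtn3 1.36% ± 0.256, Ngp 1.34% ± 0.225 and Mpo 1.30% ± 0.261. S100a8 kept 1.20% ± 0.344, S100a9 1.04% ± 0.225 and Ltf 0.948% ± 0.175. Elane, Camp and Ctsg headed this order and Ltf and Lcn2 ended it, but most neighbours in it overlapped. Of the 3 immature libraries, library 2 was the lowest for 6 of the 10 genes: Elane, Ltf, Camp, Ngp, S100a8 and S100a9.

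**Figure D2:**
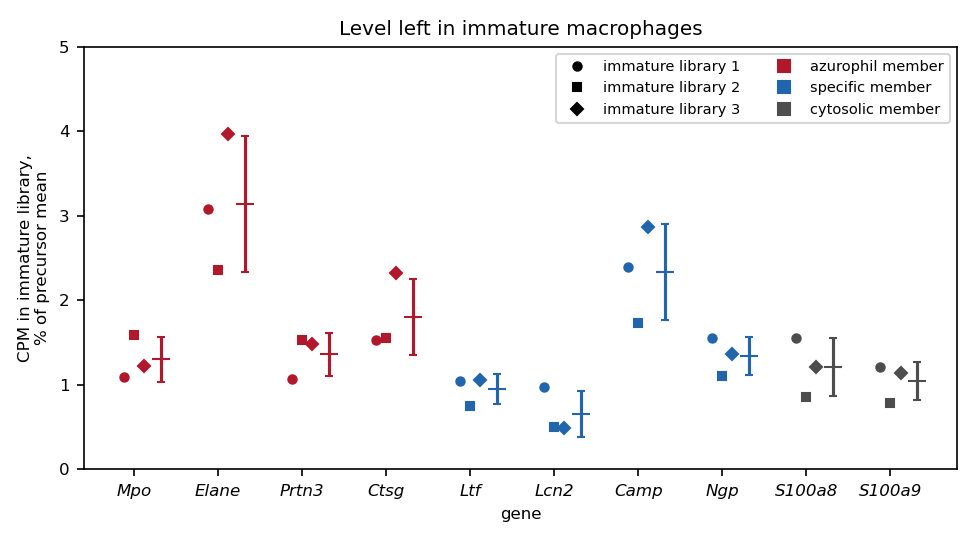
Level of each granule gene in each of the 3 immature macrophage libraries, as a percentage of the precursor mean, with the mean ± SD beside the points; red, blue and grey mark azurophil, specific and cytosolic genes. Elane and Camp sit highest and Lcn2 lowest, and the classes overlap.

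Other genes of the same granules were taken from lists based on textbook knowledge. The counts of the lists below stand beside 3559 genes called lower and 3009 called higher of all 13359 tested at this step. Whether a list departs from those shares was not tested. Of 8 other specific granule genes tested, 6 fell from precursors to immature macrophages, 1 rose and 1 missed the threshold (median log2 fold change -5.33). Hp, haptoglobin, fell from 300.1, 305 and 350.5 CPM to 6.77, 3.99 and 5.11 CPM (-5.90 ± 0.28). Chil3, a chitinase-like protein, fell from 773, 722 and 904 CPM to 33.2, 26.4 and 28.6 CPM (-4.77 ± 0.24), and in mature macrophages 1 read was left in all. Cyba, the p22phox subunit of the NADPH oxidase, which macrophages also use, rose from 185, 237 and 195 CPM to 449.6, 362 and 419 CPM (0.99 ± 0.22, adjusted p = 0.00375, edgeR).

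Of 6 other azurophil and processing genes, 3 fell, 2 rose and 1 missed the threshold (median -0.26). Prss57, a serine protease of azurophil granules, stood at 6.97, 6.01 and 5.05 CPM in precursors and at 0.0788, 0.102 and 0.511 CPM in immature macrophages. Its log2 fold change was -4.81 ± 0.62, or -5.89 without immature library 3. Cst7, an inhibitor of the granule-processing cathepsin C, fell by 3.34 ± 0.61 on the log2 scale. Cd63, a tetraspanin of azurophil granules and of lysosomes, rose from 40.9, 47.6 and 42.7 CPM to 316, 204 and 180.1 CPM (2.41 ± 0.27).

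Of 7 genes of gelatinase granules and secretory vesicles, which neutrophils make last, 4 fell, 1 rose and 2 did not pass (median -3.68). Mmp9, gelatinase B, went from 963, 947 and 1287 CPM to 5 reads over the 3 immature libraries, a ratio of 6256 (95% counting interval 2681 to 19269). Fpr1, a formyl peptide receptor, went from 23.5, 31.2 and 37.5 CPM to 1 read over those libraries, a ratio of 923 (95% counting interval 165 to 36492). That read is in immature library 1, without which Fpr1 was at least 179-fold lower. Slc11a1, a metal transporter that macrophages also carry, rose from 138, 192 and 101 CPM to 596, 467 and 389.8 CPM (1.75 ± 0.25).

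Transcription factors known to act on granule genes moved unevenly. Of 9 tested, 5 fell, 1 rose and 3 did not pass (median -0.98). Myb, needed for azurophil gene expression, fell from 120.4, 116 and 141 CPM to 0.473, 0.307 and 0.767 CPM (-7.95 ± 0.31). Cebpe, needed for specific granules, fell from 32.6, 34.5 and 47.1 CPM to 1.02, 1.74 and 2.04 CPM (-4.60 ± 0.39). Cebpa rose from 81.7, 89.4 and 103 CPM to 196, 159.8 and 109 CPM (0.76 ± 0.23, adjusted p = 0.0178, edgeR), a call lost without precursor library 1 (adjusted p = 0.0684), precursor library 2 (0.0554), immature library 1 (0.0657) or immature library 2 (0.0523), and by limma on the deposited log2 RPM (0.0514). Spi1, which encodes PU.1, was at 213, 220.0 and 222 CPM in precursors and at 263, 211 and 198 CPM in immature macrophages (0.04 ± 0.23, adjusted p = 0.910, edgeR).

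Inhibitors of granule and cysteine proteases split into a group that fell and a group that rose. Of 7 tested, 5 fell and 2 rose, with a median of -6.02, or -4.62 with the 2 genes at 0 reads set to their bound. Serpinb1a, an inhibitor of elastase, proteinase 3 and cathepsin G, fell from 46.5, 41.3 and 63.2 CPM to 2.36, 1.74 and 2.43 CPM (-4.53 ± 0.36). Slpi, a secreted inhibitor of elastase, fell from 81.6, 78.6 and 58.8 CPM to 1.81, 0.614 and 0.767 CPM (-6.02 ± 0.49, or -6.71 without immature library 1). Serpinb6a, which can inhibit cathepsin G, rose from 18.0, 22.9 and 15.4 CPM to 1342, 1066 and 814 CPM (5.83 ± 0.36) and stood at 1619, 954 and 809 CPM in mature macrophages.

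Of 5 receptors of the granule proteins, 2 fell, 1 rose and 2 did not pass (median -0.06). Tlr4, through which S100A8 and S100A9 can signal, rose from 81.2, 70.4 and 65.7 CPM to 227, 221 and 197 CPM (1.57 ± 0.17). Fpr2, a receptor of cathelicidin peptides, fell from 41.7, 50.3 and 46.7 CPM to 0.236, 0.205 and 0.256 CPM (-7.59 ± 0.39).

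The S100 family did not move with S100a8 and S100a9 as a whole. Of the 6 other S100 genes of the list that were tested, 3 rose, 1 fell and 2 did not pass from precursors to immature macrophages (median 1.05). S100a11 fell from 114, 107 and 117 CPM to 5.04, 6.14 and 4.98 CPM (-4.38 ± 0.75). S100a13 rose from 9.86, 9.15 and 11.1 CPM to 32.1, 29.8 and 42.4 CPM (1.79 ± 0.29). S100a10, named after its values were seen as a gene that did not pass, was at 145, 164 and 138 CPM before and 151, 181 and 259.7 CPM after this step. One further S100 gene outside the list was tested, S100a7a, which lies next to S100a8 and was at 1.51, 0.645 and 1.60 CPM in precursors. It held 2 reads in immature library 1 and 0 in the other 2, and was called lower (adjusted p = 0.0277, edgeR), a ratio of 17.0 (95% counting interval 4.51 to 144). Without immature library 1 the bound was at least 6.60-fold. The call was lost without immature library 2 or 3 or precursor library 1 or 3 (adjusted p = 0.0950, 0.0790, 0.0632 and 0.0629) and by limma (0.0805).

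**Figure D3:**
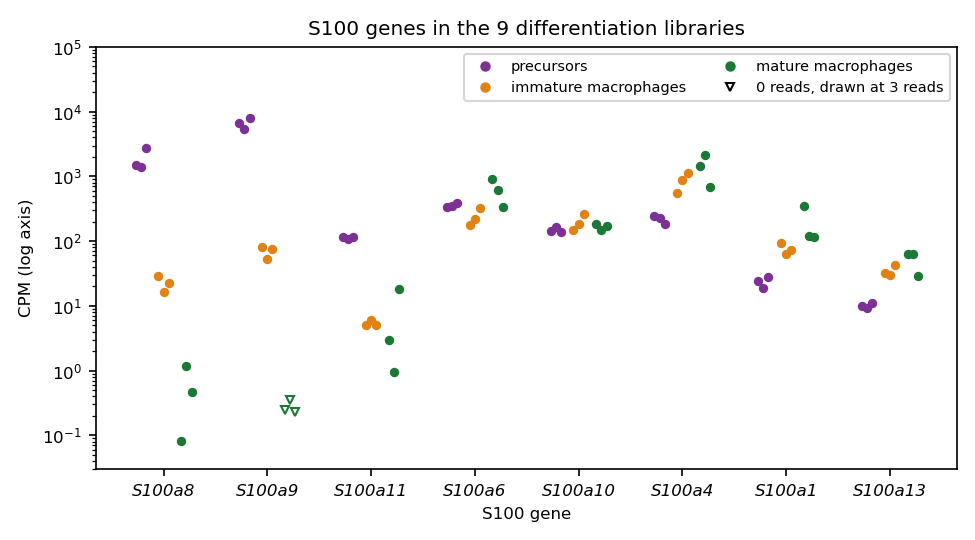
Level (CPM, log axis) of S100a8, S100a9 and the 6 other S100 genes of the list that were tested, in the 3 libraries of precursors, immature and mature macrophages; open triangles mark libraries at 0 reads, drawn at the level of 3 reads. S100a8 and S100a9 fall at each step, S100a11 falls at the first step, and S100a1, S100a4 and S100a13 are higher in immature macrophages than in precursors.

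Of 7 genes next to the granule genes that were tested, 3 fell, 1 rose and 3 did not pass. Plppr3, which overlaps Prtn3, fell by 3.48 ± 0.39 on the log2 scale (adjusted p = 1.53e-04, edgeR), S100a7a fell as given above, and Mcpt8 beside Ctsg fell as well. Between precursors and immature macrophages, Klhl18 beside Ngp was at 32.1 to 34.3 and 24.2 to 31.5 CPM, and Nme6 beside Camp was at 10.8 to 18.5 and 12.2 to 14.7 CPM. Neither passed the edgeR test (adjusted p = 0.221 and 0.987), nor did 1110008P14Rik beside Lcn2 (adjusted p = 0.373). Ccrl2, beside Ltf, rose from 2.90 to 4.01 CPM in precursors to 3.70 to 14.4 CPM (adjusted p = 0.0265, edgeR). That call was lost without immature library 1 (0.71 on the log2 scale against 1.33, adjusted p = 0.164), precursor library 2 (adjusted p = 0.0877) or precursor library 3 (adjusted p = 0.0698). Mcpt8, a basophil protease gene 14608 bases from Ctsg, was at 12.5, 5.81 and 10.7 CPM in precursors. No immature library held a read of it, which makes it at least 89.9-fold lower there, or at least 52.2-fold without immature library 1. It was the one gene tested of 5 other serine protease genes near Elane, Prtn3 and Ctsg.

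**Figure D4:**
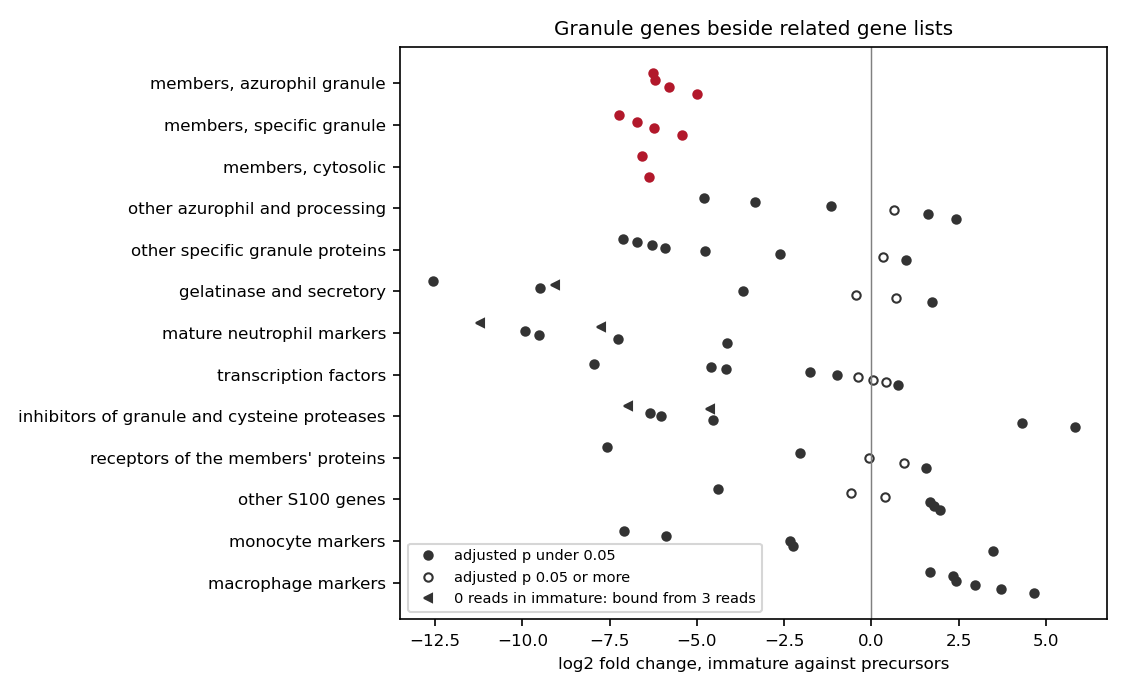
Log2 fold change from precursors to immature macrophages of each granule gene (red) and of the genes of 10 related lists (black), with filled points at an adjusted p under 0.05 (edgeR) and triangles for bounds of genes at 0 reads. The 10 granule genes lie between -7.24 and -5.00. The mature neutrophil markers lie below 0 and the macrophage markers above 0. Each other related list spreads to both sides of 0.

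Markers of several cell types moved with the granule genes. The summed level of 6 mature neutrophil markers was 1054 to 1587 CPM in precursors, 14.9 to 70.7 in immature and 27.5 to 45.2 in mature macrophages. Csf3r alone stood at 648, 571 and 873 CPM in precursors. It made up nearly all of the immature sum, at 70.4, 32.9 and 14.1 CPM. The mature sum was that of Trem1 and Csf3r (8.17, 10.8 and 14.2 CPM), as the other 4 held 0 reads there. All 6 fell from precursors to immature macrophages (median -9.73, or -8.64 with 2 genes at their bound), and Ly6g and Retnlg were at 0 reads in immature macrophages. Cxcr2, a chemokine receptor of neutrophils, stood at 229.9, 197 and 281 CPM in precursors and at 7 reads over the immature libraries, a ratio of 979.7 (95% counting interval 475 to 2437), or 1695 without immature library 3. Trem1, an activating receptor of neutrophils and monocytes, went from 24.4, 28.2 and 41.8 CPM to 1 read over the immature libraries, a ratio of 919 (95% counting interval 165 to 36309.5). That read is in immature library 1 too, without which Trem1 was at least 178-fold lower. It was back at 37.0, 16.7 and 24.2 CPM in mature macrophages.

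All 6 progenitor markers fell (median -5.74), from a sum of 238 to 295 CPM to 5.59 to 7.67 CPM. Cd34 and Flt3, which encode surface proteins of stem and progenitor cells, changed by -7.76 ± 0.48 and -5.37 ± 0.38. Of 5 monocyte markers 4 fell and 1 rose (median -2.33). Ly6c2, a surface marker of inflammatory monocytes, changed by -5.87 ± 0.23 and Cd14, a co-receptor for bacterial lipopolysaccharide, by 3.49 ± 0.40. All 6 macrophage markers rose (median 2.70), where 3009 of all 13359 genes tested were called higher. Among them were Mrc1 at 4.67 ± 0.35 and C1qa at 3.72 ± 0.39. The bulk RNA of the precursors therefore held transcripts of macrophage, monocyte, progenitor and neutrophil markers. Whether the same cells carried them was not tested.

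Markers of other marrow cells fell as well, among them 4 of 4 eosinophil markers (median -6.23, or -5.54 with 1 gene at its bound). Their summed level went from 122 to 161 CPM down to 3.70 to 6.00 CPM, with Prg2 at 84.1, 81.8 and 116 CPM in precursors. Mast cell and basophil markers fell in 4 of 4 cases (median -8.41, or -7.23 with 2 at their bound), from 43.4 to 68.0 CPM to 0 to 0.205 CPM. B cell markers fell in 4 of 4 cases (median -10.91, or -9.23 with 2 at their bound), from 214 to 305 CPM to 1.81 to 2.81 CPM. Of 4 erythroid markers 3 were tested and fell (median -11.84, or -8.41 with the 3 at their bound), from 109 to 228 CPM to 0 reads. The part of any of these cell types in the change of the granule genes was not tested.

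The genes whose pattern over the 9 libraries was most like that of the granule genes came from 9468 genes ranked by Pearson's r on log2 CPM. As the libraries fall into 3 stages, the values describe the steps between stages and not variation within them. For the mean of the 4 azurophil genes they were Rab44 (0.9995), Cd177 (0.9986), Ly6c2 (0.9983), Cd79b (0.9977) and Fcnb (0.9974). For the mean of the 6 others they were Fcnb (0.9993), Ly6c2 (0.9986), Jaml (0.9975), Plbd1 (0.9966) and Plac8 (0.9966). Both means correlated with each other at 0.9973. Cd79b is a B cell receptor gene, and Cd177 a surface protein of neutrophil specific granules. Rab44 went from 172, 151 and 226 CPM in precursors to 2.60, 3.27 and 3.45 CPM in the immature libraries, and no mature library held a read of it.

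In the IL4 experiment all 10 granule genes had a row among 25965 genes, but none passed the filter on low counts, so 0 of 10 were tested, where 20.8% of 8936 genes were called in either direction. S100a8 held 1 read in each of the 3 unstimulated libraries and 2, 3 and 1 reads in the 3 libraries with IL4. Ltf held 1 read in IL4 library 2, Lcn2 held 1 read in unstimulated library 3, and the other 7 were listed at 0 in all 6 libraries. Without the filter, 3 genes could be tested and 0 of them were called (0 also at an unadjusted p under 0.05, edgeR). A difference between these groups was not detectable at this depth. With the mouse number of the sample titles as a replicate block, 1447 genes were called higher and 1436 lower with IL4, against 937 and 918 without the block. The column headers give each of these 6 libraries a different M number, so the pairing is not certain. The same filter applied, so the granule genes were again not tested. Levels were not compared between the tables, because S100a4, at 682 to 2125 CPM in the mature differentiation libraries, held 1, 0, 1, 0, 0 and 0 reads here, and C1qa, at 1718 to 3137 CPM there, held 18, 6, 9, 1, 1 and 0. The coordinates of 6 of the 10 granule genes also differ between the tables.

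The authors' deposited table of differential genes lists all 10 granule genes in each of the 3 differentiation comparisons, with an adjusted p-value of at most 2.82e-12. The authors' deposited list for IL4, of 1863 genes, holds none of them.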

How the data were processed

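Column-purified, DNase-treated total RNA (1 µg a library) was sequenced on Ion Torrent, per the labels' protocols. HISAT2 2.0.5, edgeR and the builds GRCm38.p6 and GRCm39.p6 are named in the submitters' processing notes; neither counting program nor strand setting is given in the sources used here. What the authors deposited are raw counts by gene, a log2 RPM table with matching sorted values between libraries, and lists of adjusted p-values (FDR).

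The tests used edgeR 4.0.16 (R 4.3.3): filterByExpr by group (minimum count 10), TMM, glmQLFit, glmQLFTest, Benjamini-Hochberg over all genes tested, 9 differentiation libraries in 1 fit and 6 IL4 libraries in another. The test of immature macrophages against precursors was checked on simulated counts, and the other comparisons were not. Alternatives were RLE scaling, DESeq2 1.42.0, no filter, 1 CPM in at least 3 libraries, limma 3.58.1 on the deposited log2 RPM, a replicate block, fits of 6 libraries and leaving out each library. Whether different groups used the same mice is not given, and p-values measure the spread between libraries. The sample titles repeat the mouse numbers in each group. The column headers, however, give each of the 6 IL4 libraries a different M number, whose meaning is not stated. Deviations from the group means correlated at r = 0.175 to 0.591 between IL4 libraries of the same mouse number. Between those of different numbers r was -0.487 to 0.247, so the ranges overlap. In the differentiation table the ranges were -0.129 to 0.165 and -0.128 to 0.139. Neither main fit was paired, and the replicate block was run as an alternative for both.

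Members and lists were chosen with earlier results of these data known. From each of the 16 related lists (97 genes) the 2 tested genes with the lowest p from precursors to immature macrophages were picked, with 1 called in the opposite direction, and for the patterns most alike 5 genes a profile with at least 10 CPM in a group. For brevity Ccr3, Prss34, Gata2, Ms4a1, Hba-a1 and Hbb-bs are not described. One other gene so picked is not reported here. Exact intervals are Clopper-Pearson at 95%, and a bound takes 3 reads for 0. Gene positions are those of the deposited differentiation table, equal to GENCODE M21 for the 10 genes, and promoter sequences are from RefSeq. Figures were drawn with matplotlib 3.10.9.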

Additional observations from a re-analysis of the deposited data

How the results depend on the processing

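All 10 granule genes were called lower in each of the 3 differentiation comparisons under every alternative run: RLE scaling, DESeq2, no filter, a filter at 1 CPM in 3 libraries, limma on the deposited log2 RPM, the replicate block, fits of only the 6 libraries compared, and leaving out each library in turn. With the replicate block 10, 10 and 10 of the 10 were called in the differentiation comparisons, so it changed no call there. With IL4 the block could not call any of them, since none passed the filter on low counts. Over the 130 values of the 10 genes and these settings, the log2 fold change from precursors to immature macrophages ran from -7.65 to -4.76 (largest adjusted p = 1.37e-04, by edgeR or the tool named). For S100a9 limma gave -7.19 against -6.58. Fitted changes to mature macrophages rest on groups at 0 reads for 7 genes, so folds from pooled reads are given for single genes instead. Leaving out mature library 1 or 3 lowers the bounds, and leaving out mature library 2 raises the ratio of S100a8, as given beside the values. From precursors to immature macrophages the median log2 fold change of all genes was 0.10 by limma, -0.26 without the filter and -0.07 in the fit reported. Counts over all genes moved more: with only the 6 libraries compared, 612 genes were called lower from immature to mature macrophages against 986, and DESeq2 called 1375. In the IL4 experiment these genes held 4 reads in all without and 7 with IL4, which limits what could be seen there.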

Other observations

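S100a8 was the one granule gene with reads in each of the 3 mature differentiation libraries and in each of the 6 libraries of the IL4 experiment (9 reads over the latter), while S100a9 held 0 reads in these 9 libraries. A count of 0 in the IL4 experiment has limited weight, since S100a4 held 1, 0, 1, 0, 0 and 0 reads there. Trem1 was the one mature neutrophil marker that rose from immature to mature macrophages (adjusted p = 2.22e-05, edgeR). Fpr1 and Fpr2 rose as well at that step (adjusted p = 0.0115 and 0.0252, edgeR), to 0.486, 1.17 and 0.459 CPM and to 1.05, 0.351 and 1.07 CPM, far below their precursor levels. Adam8, a metalloproteinase of neutrophil granules and of macrophages that was chosen here after its values were seen, stood at 463, 646 and 374 CPM in precursors, 600.1, 802 and 1001 CPM in immature and 4830.0, 4172 and 4042 CPM in mature macrophages.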
